A study of Mus musculus with 23 samples.

Results

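Ear3, Ear6, Rnase2a, Rnase2b, Prg2, Il5ra, Ccr3 and Siglecf are genes by which mouse eosinophils are commonly recognised, and their RNA was followed across the left lungs of 23 mice. They are 8 of the 754 genes of a NanoString nCounter mouse myeloid panel, in which colour-coded probes are counted without amplification, and were taken from the table by name. Wild-type (WT) and Fat-1 mice of both sexes were instilled 14 times with an extract of organic dust or with its PBS vehicle, called saline here. Grouped by extract code, 7 of the WT mice had dust (4 females, 3 males) and 5 had saline (2 females, 3 males), while among the Fat-1 mice 6 had dust (3 of each sex) and 5 had saline (2 females, 3 males). Fat-1 mice carry a fatty acid desaturase gene of Caenorhabditis elegans that turns omega-6 into omega-3 fatty acids. The sources used here do not give the promoter of that transgene, the background strain or the age of the mice. All lungs had been lavaged before the left lobe was taken, so that cells washed out of the airspaces of either group are not in these samples.

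Eosinophils are granulocytes that mature under interleukin 5, enter tissue along chemokines that bind CCR3, and store cationic proteins in their granules. In the mouse the eosinophil-associated ribonucleases form a large family of closely related genes, to which Ear3, Ear6, Rnase2a and Rnase2b belong. Prg2 encodes major basic protein, the core of the granule. Il5ra encodes the interleukin 5 receptor alpha chain, Ccr3 the eotaxin receptor, and Siglecf a sialic acid-binding inhibitory receptor. Siglecf and members of the ribonuclease family are also expressed by alveolar macrophages of the mouse, so that these genes alone do not identify a cell type in whole lung.

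The defining granule genes of eosinophils were at or near the floor of the measurement. Epx, which encodes eosinophil peroxidase, and Prg3, a paralog of Prg2, were at the floor of 20 normalized counts in all 23 lungs, as was Il5. Prg2 was above the floor in 5 lungs, Il5ra in 2 and Ccr3 in 7, while Ear3 and Siglecf were measured in all 23. The 8 genes are therefore called by name below and not treated as a measure of eosinophils. In bulk tissue, fewer cells of a type and less RNA per cell cannot be told apart.

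The promoters are shown because the ribonuclease genes are near-copies of each other and because every promoter found holds the core letters bound by GATA factors, which direct the eosinophil lineage. RefSeq (GRCm38.p6) held promoter windows for 6 of the 8 genes, Ear3 and Prg2 being the others. Of the 8 transcripts 7 matched its gene table, and that of Ear3, whose name is absent there too, did not. Each stretch runs from 100 bases before the start of the gene to 25 after it, 5′ to 3′ on the gene's own strand, with GATAA, or TTATC where the site lies on the opposite strand, in capitals.
Rnase2a, chr14:51256088-51256212, minus strand: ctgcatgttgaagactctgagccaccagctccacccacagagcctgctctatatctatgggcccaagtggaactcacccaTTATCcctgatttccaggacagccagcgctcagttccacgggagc
Rnase2b, chr14:51162160-51162284, plus strand: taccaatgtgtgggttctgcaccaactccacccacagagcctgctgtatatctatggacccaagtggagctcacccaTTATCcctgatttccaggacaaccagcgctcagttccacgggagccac
Ear6, chr14:51853668-51853792, plus strand: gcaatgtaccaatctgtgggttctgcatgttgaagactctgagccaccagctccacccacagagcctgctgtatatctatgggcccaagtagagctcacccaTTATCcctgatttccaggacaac
Siglecf, chr7:43351241-43351365, plus strand: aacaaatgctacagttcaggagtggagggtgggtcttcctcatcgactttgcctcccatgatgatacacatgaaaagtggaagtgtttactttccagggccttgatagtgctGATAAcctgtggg
Ccr3, chr9:124021871-124021995, plus strand: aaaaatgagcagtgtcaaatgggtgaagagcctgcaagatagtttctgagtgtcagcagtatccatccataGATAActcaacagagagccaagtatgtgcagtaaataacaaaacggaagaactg
Il5ra, chr6:106749013-106749137, minus strand: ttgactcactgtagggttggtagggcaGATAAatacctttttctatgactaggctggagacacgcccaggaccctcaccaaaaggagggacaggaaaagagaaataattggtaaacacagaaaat

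In the 3 ribonuclease promoters the site read TTATC inside the same run of letters, with its first base at −20 in Rnase2a, −23 in Rnase2b and 3 in Ear6, counted from the first base of the gene. In Siglecf it began at 13, in Ccr3 at −29 and in Il5ra at −73. GATAA on either strand occurred in all 6 of these windows of 300 bases and in 25.4% of the 32851 mouse promoters of that length. The letters were searched after the sequences had been read, and the ribonuclease promoters are near-copies that carry the same site, so the count is a description. Over the 250 bases before the start, Rnase2a and Rnase2b were 91.3% identical, Rnase2b and Ear6 92.4%, and Rnase2a and Ear6 88.2%. The 15 pairs among these 3 and Ear1, Ear2 and Ear10 ranged from 86.1% to 99.2%. The probe sequences were not used here, so that a signal under 1 ribonuclease name could include RNA of a near-identical copy. This limit also holds for Ear3, for which no sequence was compared.

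Depth differed between lungs. Genes counted fewer than 20 times read 20 normalized counts in every lung, whatever its scale factor. The lowest readable value of a lung is therefore 20 normalized counts or 20 times its scale factor, whichever is higher. This limit was 25.1 in the median dust lung (20 to 47.3) and 36.2 in the median saline lung (20 to 84.3), so that a low gene was easier to read in dust lungs. A gene at the floor reads 20 even in the saline lung whose limit was 84.3. The probes recovered per lung numbered 110453 to 812429. The labels of 4 lungs disagreed with each other on the group, and those of 19 did not. Fat-1 female saline lung 1 of day 1, Fat-1 male dust lung 1 of day 1 and Fat-1 male saline lung 2 of day 2 were WT by title and characteristics. The last of these was also female by those labels. WT male saline lung 2 of day 2 was WT female dust by its title. The extract code was used for all of them. A pair of lungs stood apart in values of these same data, so that calls gained or lost without them are given as a description. WT female saline lung 1 of day 2 had the highest mean of the 8 negative control probes (19.75 counts, against 4 to 13.6 in the other lungs), and Fat-1 female dust lung 2 of day 1 had the lowest sum of alveolar macrophage genes of all 23 (13590 normalized counts). Lungs had been extracted on 2 days, 12 on day 1 and 11 on day 2, and are named by group, number and day. Lung tissue itself was plain in every library, with Cdh5 and Tek of endothelium and Lamp3 and Cdh1 of epithelium above the floor in all 23.

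Ear3 and Siglecf, the pair read in every lung, were higher after dust on the deposited scale. Ear3 ranged in WT dust lungs from 1206 to 3312 normalized counts with a median of 2383. The WT saline lungs read 2295, 1478, 1240, 1924 and 1445. In Fat-1 dust lungs it ranged from 1128 to 2847 with a median of 1758, and the Fat-1 saline lungs read 1081, 1035, 977, 1242 and 1035. The groups overlapped: 5 of 13 dust lungs lay above the highest saline lung, and 4 of 10 saline lungs lay below the lowest dust lung. Ear3 averaged 2086 ± 714 in dust (SD, n = 13) and 1375 ± 431 in saline (SD, n = 10), a log2 fold change of 0.54 (SE 0.19, limma adjusted p = 0.0214).

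Siglecf ranged in WT dust lungs from 163.6 to 349 normalized counts with a median of 252. The WT saline lungs read 133, 169, 184, 209 and 148. In Fat-1 dust lungs it ranged from 167 to 276 with a median of 223, and the Fat-1 saline lungs read 169.5, 119, 147, 132 and 124. Here 8 of 13 dust lungs lay above the highest saline lung and 6 of 10 saline lungs below the lowest dust lung. Siglecf averaged 240.0 ± 65.0 in dust and 153 ± 28.8 in saline, a log2 fold change of 0.62 (SE 0.15, limma adjusted p = 0.00249). The Fat-1 saline lungs held the lowest values of both genes, 977 for Ear3 and 119 for Siglecf.

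**Figure D1:**
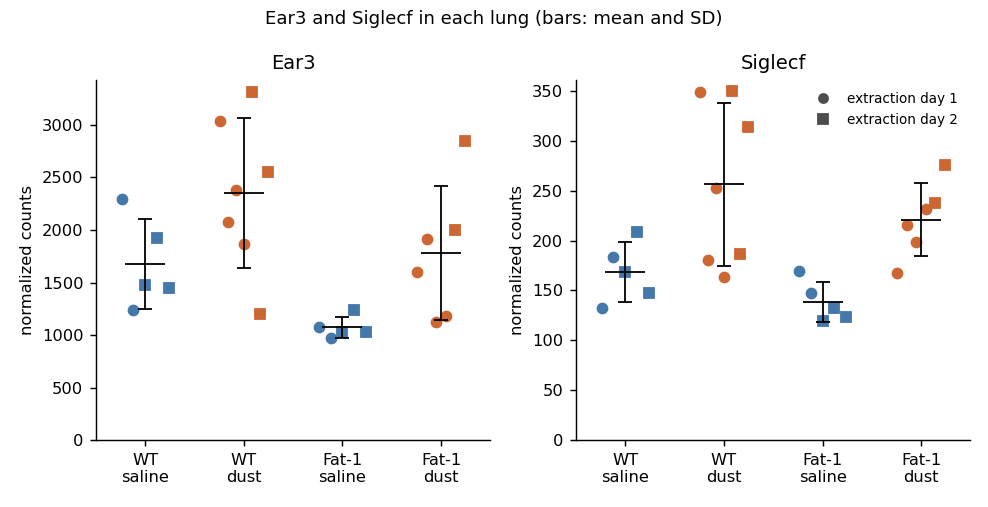
Normalized counts of Ear3 (left) and Siglecf (right) in each of the 23 lungs, by genotype and exposure, with circles for extraction day 1, squares for day 2, and bars for the group mean and SD. Dust lungs average higher in both genotypes, and the 5 Fat-1 saline lungs sit between 977 and 1242 for Ear3.

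Both rises were of the size common to the panel. In limma's test 3 of the 8 genes passed an adjusted p of 0.05 in dust against saline, namely Ear3, Ear6 and Siglecf, all higher, which is 37.5%, against 53.3% of all 711 tested genes (43.3% higher and 9.99% lower in dust). The median log2 fold change of the 8 genes was 0.51 and that of all tested genes 0.26. By size, Siglecf ranked 239 and Ear3 259 from the top of the 711. These calls depended on the scaling. With each lung centred on the median of the 470 genes above the floor everywhere, the median of all genes moved to −0.13, and Ear3 was at 0.15 (adjusted p = 0.421), Siglecf at 0.23 (adjusted p = 0.222) and Ear6 at 0.24 (adjusted p = 0.252). Calls over the panel were 308 higher and 71 lower on the deposited scale, 250 and 119 on the housekeeping scale, and 202 and 244 after centring. On the housekeeping scale Siglecf was at 0.46 (adjusted p = 0.0170), Ear6 at 0.47 (adjusted p = 0.0200) and Ear3 at 0.39 (adjusted p = 0.0615), with the median of all genes at 0.10.

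The call for Ear3 was also lost without WT female saline lung 1 of day 2 (0.47, adjusted p = 0.0634), without the 4 lungs whose labels disagree (0.60, adjusted p = 0.0600) and without the 4 lungs with a limit above 45 (0.56, adjusted p = 0.0632). Without both lungs that stood apart 3 of the 8 genes passed, against 54.4% of 706 genes, with Rnase2a (1.20, adjusted p = 6.94e-04) in and Ear3 (0.46, adjusted p = 0.0810) out. The calls of Siglecf and Ear6 held in all 23 fits that left out a lung, with Siglecf from 0.55 to 0.68 and Ear6 from 0.51 to 0.74. For Ear6 this tests little, since 9 of 10 saline lungs were at the floor and so nearly equal by construction.

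Ear3 and Siglecf followed each other across lungs. Pearson's r of their log2 values was 0.73 over the 23 lungs (Spearman's rho 0.67), 0.72 within the 13 dust lungs and 0.32 within the 10 saline lungs. The genes most like Ear3 were Id2, an inhibitor of DNA binding used in leukocyte development (r = 0.83, rho 0.77), Lipa, the lysosomal acid lipase (0.79, rho 0.75), and Man2b1, the lysosomal mannosidase (0.78, rho 0.78). Siglecf was most like Id2 (r = 0.77, rho 0.72), Lipa (0.74, rho 0.72) and Ear3 itself. These correlations are over 23 lungs that share their scale factors and the difference between dust and saline, and are given as a description. For Siglecf and Lipa r was 0.76 within dust lungs and 0.05 within saline lungs, and for Ear3 and Lipa it was 0.65 and 0.80.

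**Figure D2:**
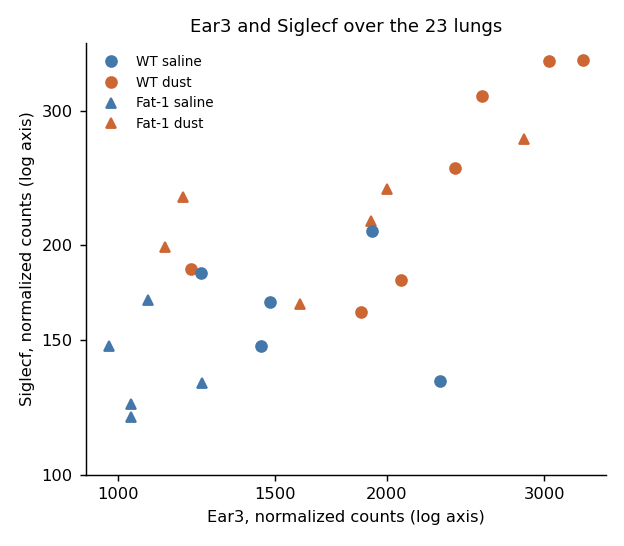
Ear3 (x axis) against Siglecf (y axis), both in normalized counts on log axes, 1 point per lung, with circles for WT, triangles for Fat-1, orange for dust and blue for saline. The WT dust lungs at the upper right reach 3312 for Ear3 and 349 for Siglecf, and the Fat-1 saline lungs lie at the lower left.

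The other ribonuclease genes lay close to the floor. Ear6 was above it in 10 of 13 dust lungs, at 27.7 to 50.4 normalized counts (22 to 51 probes counted), and in 1 of 10 saline lungs, WT female saline lung 1 of day 2 at 38.2. Among lungs with a limit of 45 or lower, 5 of 12 dust lungs and 0 of 7 saline lungs exceeded 45. Those 5 readings were 45.5 to 50.4, close above a cut set after the data were seen. The count therefore cannot decide whether the contrast holds where both groups could be read. The log2 fold change of Ear6, 0.63 (SE 0.14, limma adjusted p = 0.00148), rests on floor values in 9 of 10 saline lungs and therefore has no fold size of its own. The p-value rests on the same floor values. With a common floor at the highest limit in every lung, Ear6 was under it everywhere and could not be tested.

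Rnase2a, also named Ear11, was read in most dust lungs and few saline lungs. Fat-1 dust lungs read 92.4, 49.99, 87.5, 74.5, 92.9 and 95.0 normalized counts. Fat-1 saline lungs read 33.4 in 1 lung and were at the floor in the other 4, whose limits were 24.3 to 84.3. All 6 Fat-1 dust lungs thus exceeded the highest reading of the 5 Fat-1 saline lungs, but 1 saline lung could not have shown a value under 84.3. WT dust lungs ranged from the floor of 20 to 71.5 with a median of 39.4. WT saline lungs read 296 and 45.4 in 2 lungs and were at the floor in the other 3.

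The reading of 296 was 333 counted probes in WT female saline lung 1 of day 2, the highest Rnase2a value of all 23 lungs with the next at 95.0. Ear6, Prg2 and Ccr3 were above the floor in that lung too, at 38.2, 38.2 and 40.8, each beyond its highest negative control probe. Whether its raised control probes bear on these readings was not tested. In dust against saline Rnase2a was at 0.75 on the log2 scale (SE 0.34, adjusted p = 0.0742) with that lung, and rose by 1.23 (adjusted p = 3.54e-04) without it.

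Rnase2b, also named Ear5, was above the floor in 13 of 13 dust lungs, at 24.2 to 74.4 normalized counts, and in 6 of 10 saline lungs, at 28.4 to 97.6. The highest value belonged to a saline lung, WT male saline lung 1 of day 1, which was at 97.6. The groups overlapped through nearly their whole range, and 0 dust lungs exceeded the highest saline lung. Its log2 fold change was 0.48 (SE 0.26, adjusted p = 0.142), or 0.62 (adjusted p = 0.0394) without that saline lung. With a common floor in every lung Rnase2b was at −0.02 (adjusted p = 0.689) and Rnase2a at −0.18 (adjusted p = 0.278), both opposite in sign to their values on the deposited floor. That floor of 84.3 lies above every dust reading of Rnase2b, so its sign follows from the saline lung at 97.6 alone. For Rnase2a it left only readings of 87.5 to 95.0 in Fat-1 dust lungs and 296 in a saline lung. These reversals therefore say little about either gene.

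**Figure D3:**
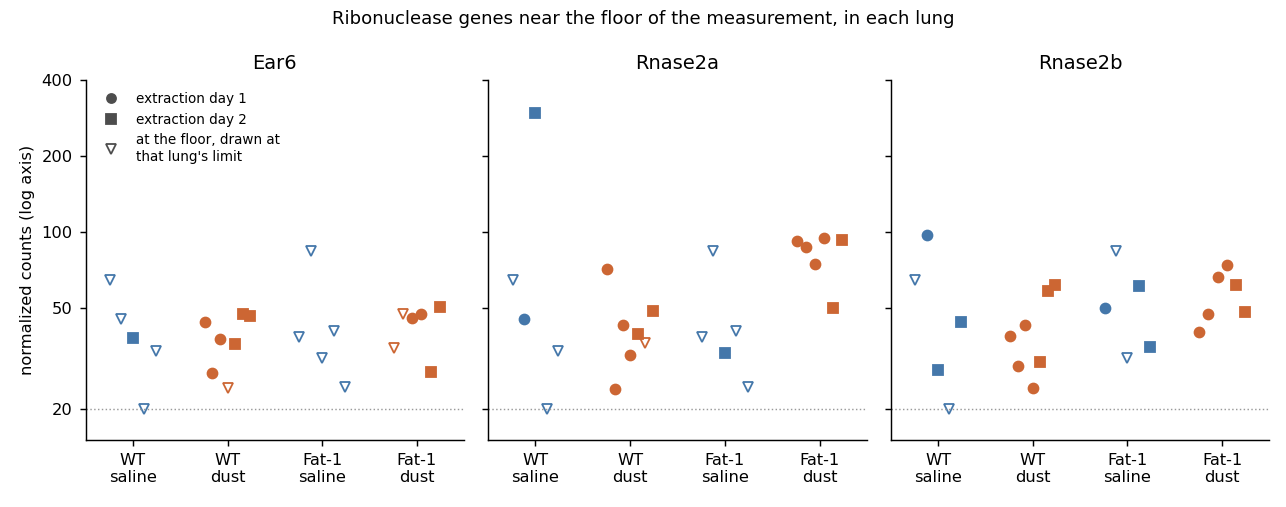
Normalized counts of Ear6, Rnase2a and Rnase2b in each lung on a log axis, by genotype and exposure, with circles for day 1 and squares for day 2. Open triangles are lungs at the floor, drawn at the lowest value that lung could have shown (20 to 84.3), and the dotted line is the floor of 20; the Fat-1 dust lungs are all above 49 for Rnase2a.

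The ribonuclease genes differed in the genes they were most like. Ear6 was most like Adora3, the adenosine A3 receptor of eosinophils, mast cells and macrophages (r = 0.79, rho 0.78), and the chitinase-like genes Chil4 (0.78, rho 0.79) and Chil3 (0.77, rho 0.80), and it followed Siglecf at 0.70 and Ear3 at 0.36. Among the genes most like Rnase2a were Ccl17, a chemokine for CCR4-bearing T cells (r = 0.69, rho 0.76), and Icam1, an adhesion molecule (0.65, rho 0.67). Rnase2b was most like the collagenase Mmp13 (r = 0.74, rho 0.66), Rasal1 (0.72, rho 0.67) and Il13 (0.69, rho 0.71). Among the ribonuclease genes r was 0.50 between Rnase2a and Ear6, 0.38 between Rnase2b and Ear6, 0.25 between Rnase2a and Rnase2b, 0.22 between Ear3 and Rnase2a, and −0.12 between Ear3 and Rnase2b. Many of these readings were at the floor, and the limits that set the floor followed the depth of the lungs.

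Prg2, the granule protein gene, was above the floor in 4 of 13 dust lungs, at 47.3 and 90.9 in Fat-1 lungs and at 30.1 and 23.1 in WT lungs, and in 1 of 10 saline lungs at 38.2. Its log2 fold change was 0.21 (SE 0.23, adjusted p = 0.463). The highest value was 92 counted probes in Fat-1 male dust lung 1 of day 2, the only lung in which Prg2, Il5ra and Ccr3 were all above the floor, at 90.9, 21.75 and 43.5. That lung had a binding density above 3, for which the file carries a saturation message. The genes most like Prg2 were Cd209e (r = 0.94), Ccl24, an eotaxin (0.81), and P2rx1 (0.80), but these were above the floor in only 3, 2 and 4 lungs.

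Il5ra, through which interleukin 5 keeps eosinophils alive, was above the floor in 2 of 13 dust lungs, at 22.3 in WT male dust lung 1 of day 1 and 21.75 in Fat-1 male dust lung 1 of day 2, and in 0 of 10 saline lungs. Only 1 of those readings exceeded the highest negative control probe of its lung. At this depth no difference was detectable (log2 fold change 0.02, SE 0.06, adjusted p = 0.781), and a level under the limits of 20 to 84.3 would not have been seen. The 3 genes of highest r with Il5ra were Msc (0.79), Saa1 (0.58) and Vsir (0.56), which rest on its 2 readings.

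Ccr3 was above the floor in 4 of 13 dust lungs, at 25.1, 42.7, 43.5 and 49.6, and in 3 of 10 saline lungs, at 21.8, 40.8 and 53.9. The highest reading was in Fat-1 female saline lung 1 of day 1, and the groups covered the same range. Its log2 fold change was −0.03 (SE 0.19, adjusted p = 0.919). Ccr3 was most like Alox15, a lipoxygenase of eosinophils and macrophages (r = 0.65, rho 0.54), Retnla, an alternative activation gene (0.57, rho 0.49), and Gata1, the lineage factor of eosinophils, mast cells and erythroid cells (0.53, rho 0.49), which was above the floor in 2 lungs.

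**Figure D4:**
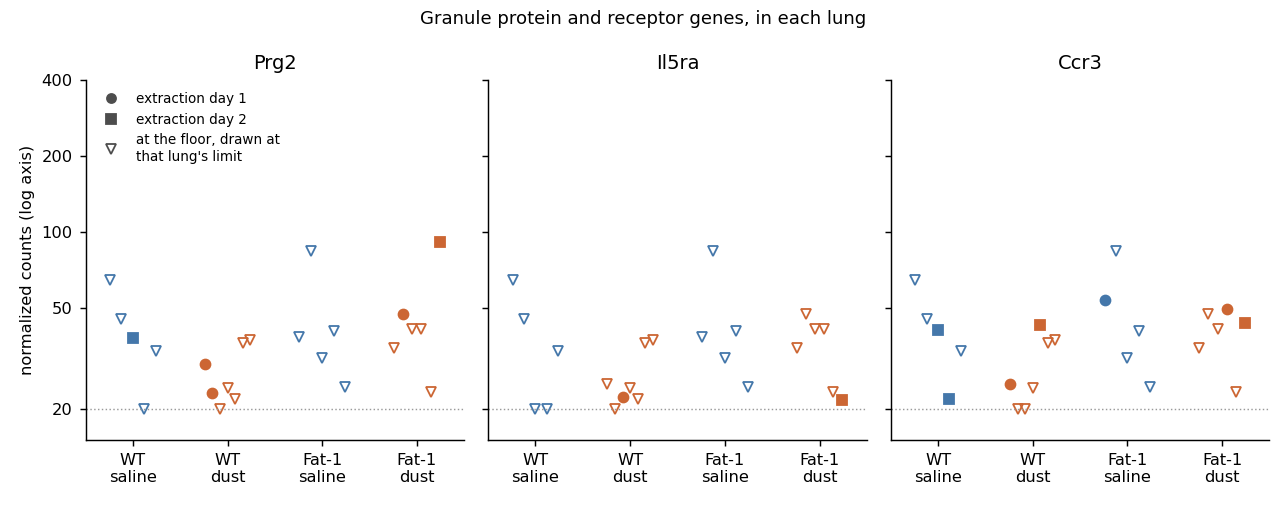
Normalized counts of Prg2, Il5ra and Ccr3 in each lung on a log axis, drawn as for the ribonuclease genes, with open triangles for lungs at the floor. Most lungs are at the floor for all 3 genes, and the highest reading is 90.9 for Prg2 in a Fat-1 dust lung.

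Within each genotype the dust difference was then tested alone. In WT lungs (n = 7 for dust, n = 5 for saline) 2 of the 8 genes passed, both higher, against 35.3% of all genes (30.7% higher). Siglecf was at 0.57 (limma adjusted p = 0.0430) and Ear6 at 0.57 (adjusted p = 0.0354), while Ear3 was at 0.43 (adjusted p = 0.215) and Rnase2a at −0.27 (adjusted p = 0.695). The median of the 8 genes was 0.14 and that of all genes 0.28. These WT calls were lost in 11 of 23 fits without a lung for Siglecf (adjusted p up to 0.165) and in 8 of 23 for Ear6 (up to 0.249). For Siglecf these lungs were Fat-1 male dust 2 and WT female dust 1, male dust 1, female saline 1 and male saline 1 of day 1, and Fat-1 male saline 1 and 2, WT female dust 1, male dust 1, female saline 1 and male saline 2 of day 2. For Ear6 they were WT female dust 1, male dust 1, female saline 1 and male saline 1 of day 1, and WT female dust 2, male dust 1 and male saline 1 and 2 of day 2. The value of Rnase2a in WT lungs turned on single saline lungs. Without WT female saline lung 1 of day 2, the lung at 296, it was at 0.68 (adjusted p = 0.135). Without WT female saline lung 1 of day 1 it fell by 1.23 (adjusted p = 0.0242), with the lung at 296 then alone in its group.

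In Fat-1 lungs (n = 6 for dust, n = 5 for saline) 3 of the 8 genes passed, all higher, against 38.1% of all genes (32.2% higher). Rnase2a was at 1.77 (SE 0.49, limma adjusted p = 0.0115), Ear6 at 0.68 (adjusted p = 0.0166) and Siglecf at 0.66 (adjusted p = 0.0254), with Ear3 at 0.66 (adjusted p = 0.0601). The median of the 8 genes was 0.66 and that of all genes 0.27. In Fat-1 lungs a common floor of 84.3 left only Rnase2a readings of 87.5 to 95.0 above it, so that fit says little about Rnase2a. Rnase2a stayed above the threshold after median centring (1.38, adjusted p = 0.0257) and on the housekeeping scale (1.65, adjusted p = 0.0146), and without the lungs of limit above 45 (1.71, adjusted p = 0.00923). It did not with a common floor in every lung (0.08, adjusted p = 0.768), without Fat-1 female saline lung 1 of day 1 (1.60, adjusted p = 0.0531), with groups by the characteristics (1.65, adjusted p = 0.0953), among lungs of day 2 alone (1.36, adjusted p = 0.0908) or without the 4 lungs whose labels disagree (1.65, adjusted p = 0.112). Ear6 lost its call in Fat-1 without female saline lung 1 of either day (highest adjusted p = 0.0516). Siglecf lost it without female saline lung 1, male saline lung 2 or male dust lung 1 of day 2 (highest adjusted p = 0.127). Ear3 gained a call without male dust lung 1 or 2 of day 1, or without WT female dust lung 2 of day 2 (lowest adjusted p = 0.0317).

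**Figure D5:**
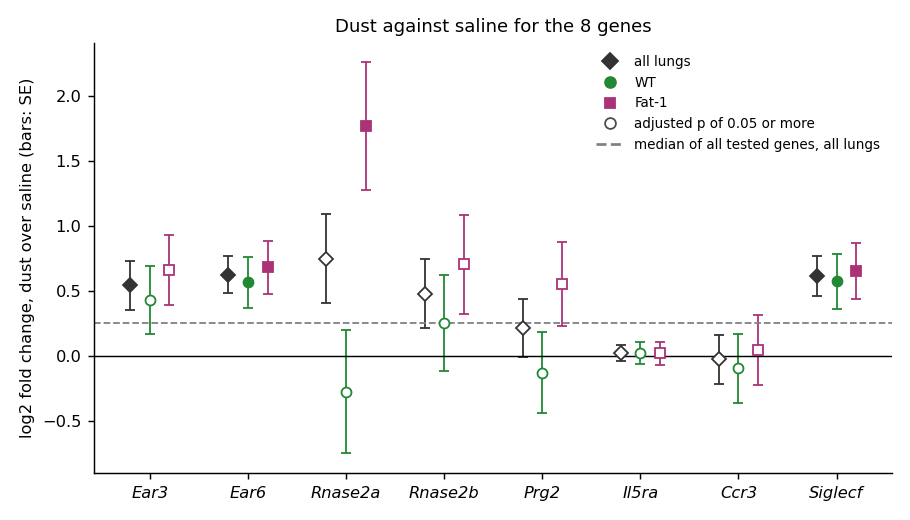
Log2 fold change of dust over saline with its SE for the 8 genes, over all lungs (diamonds), in WT (circles) and in Fat-1 lungs (squares); filled symbols have an adjusted p under 0.05 and the dashed line is the median of all tested genes, 0.26. Rnase2a is at −0.27 in WT lungs (0.68 without the saline lung at 296) and 1.77 in Fat-1 lungs, and Il5ra and Ccr3 lie near 0.

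The difference between the genotypes' dust responses was itself tested. For Rnase2a it was 2.05 on the log2 scale (SE 0.68, unadjusted p = 0.00790) and missed the threshold in limma's test over all genes (adjusted p = 0.999). With 4 of 5 Fat-1 and 3 of 5 WT saline lungs at the floor, this value has no fold size of its own. Of the 711 genes 0 passed (0%), with 21 at an unadjusted p under 0.05. A common floor of 84.3 hid every WT dust reading of Rnase2a, the highest being 71.5, so the value under it says little. The size of the Rnase2a difference depended on which saline lungs entered. It was 1.09 (adjusted p = 0.756) without the saline lung at 296, 1.03 (adjusted p = 0.587) without the 2 lungs that stood apart, 3.00 (adjusted p = 0.00467) without WT female saline lung 1 of day 1, 2.75 (adjusted p = 0.0419) without the 4 lungs of limit above 45, and 0.53 (adjusted p = 1.00) with a common floor. For Siglecf the difference was 0.08, for Ear6 0.12, for Ear3 0.23, for Rnase2b 0.45 and for Prg2 0.68, each at an adjusted p of 0.999.

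Fat-1 and WT lungs were also compared within each exposure, where 0 of 711 genes passed (0%) in either comparison in limma's test, with 22 at an unadjusted p under 0.05 among dust lungs and 10 among saline lungs. These comparisons share their lungs with those above. The Fat-1 groups by extract code include lungs that the title and characteristics call WT. Among saline lungs Ear3 was lower in Fat-1, at 1074 ± 101 (SD, n = 5) against 1676 ± 426 (n = 5), a log2 difference of −0.64 (SE 0.28, unadjusted p = 0.0364, adjusted p = 1.00). Among dust lungs Ear3 was at 1779 ± 636 (n = 6) against 2348 ± 714 (n = 7), a log2 difference of −0.41 (SE 0.25, adjusted p = 0.979). Over 39 alternatives, groups by the characteristics among them, these Ear3 differences ran from −0.80 to −0.44 in saline lungs and from −0.69 to 0.08 in dust lungs. Rnase2a was 1.08 higher in Fat-1 dust lungs than in WT dust lungs (SE 0.45, unadjusted p = 0.0270, adjusted p = 0.979) and at −0.97 in saline lungs (SE 0.52, adjusted p = 1.00). That saline value was −0.01 (adjusted p = 1.00) without the lung at 296 and −1.92 (adjusted p = 0.0270) without WT female saline lung 1 of day 1. With all lungs none of these differences passed after adjustment.

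The extraction days gave Siglecf and Ear3 in the same direction. By the file names, most lungs of day 1 ran on cartridge 2 and most of day 2 on cartridge 1. A difference between days is therefore also nearly a difference between cartridges, and these cannot be fully told apart. On day 1 Siglecf averaged 220 ± 60.7 in 8 dust lungs and 158 ± 22.7 in 4 saline lungs (log2 fold change 0.44, adjusted p = 0.162), and on day 2 272 ± 63.8 in 5 and 150.1 ± 33.9 in 6 (0.88, adjusted p = 0.0865). Ear3 was at 0.46 on day 1 (adjusted p = 0.0601) and 0.83 on day 2 (adjusted p = 0.171), and Ear6 at 0.60 (adjusted p = 0.0570) and 0.76 (adjusted p = 0.0560). Rnase2a was at 1.22 on day 1 (adjusted p = 0.0120) and 0.15 on day 2 (adjusted p = 0.640), the day of the saline lung at 296. Each day alone leaves a single lung in some groups, so that the missing calls for Ear3, Ear6 and Siglecf on either day say little about these genes. Between days at fixed group 0 of the 8 genes passed, against 0.281% of all genes, with Ear6 at 0.29 (unadjusted p = 0.0374, adjusted p = 0.304). In the test of whether the dust difference changed with the day 0 of the 8 passed, against 0.844% of all genes, with Siglecf at 0.41 (adjusted p = 0.443), Rnase2b at 0.61 (adjusted p = 0.506) and Rnase2a at −0.90 (adjusted p = 0.452).

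Sex gave no call. In males against females 0 of 711 genes passed (0%) in limma's test, with 17 at an unadjusted p under 0.05, and the 8 genes ran from −0.35 for Rnase2a to 0.36 for Rnase2b. In the test of the dust difference between the sexes 0 of 711 passed (0%), with 14 at an unadjusted p under 0.05. Ear6 was at 0.65 (unadjusted p = 0.0349, adjusted p = 0.998) and Ccr3 at 0.80 (unadjusted p = 0.0501, adjusted p = 0.998). Siglecf averaged 241 ± 77.6 in 7 female dust lungs and 239 ± 53.8 in 6 male dust lungs.

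The genes that act upstream of eosinophils were read from lists, and each list is given on the deposited scale and after median centring of the lungs. Centring shifts equal floor values apart, so that a gene called lower after it can be a gene at the floor. Of 8 tested growth factors, receptors and lineage factors 4 were called higher and 1 lower in dust (median 0.33, all genes 0.26). Over all genes 43.3% were called higher and 9.99% lower. After centring 1 gene of the list was higher and 3 lower, with Il5 at the floor everywhere. Among those 3 was Gata1 (0.05 before centring, −0.34 with limma adjusted p = 0.0313 after), at the floor in 12 of 13 dust and 9 of 10 saline lungs. Csf2ra, the receptor chain for granulocyte-macrophage colony-stimulating factor, rose from 112 ± 35.6 to 304 ± 114 normalized counts (1.40, adjusted p = 6.75e-05; 1.01 after centring). Its ligand Csf2 rose by 0.69 (adjusted p = 0.0266) and Irf8, a myeloid lineage factor, by 0.47 (adjusted p = 0.00939), against 0.30 (adjusted p = 0.310) and 0.08 (adjusted p = 0.571) after centring. Gata2, a lineage factor of mast cells and eosinophil progenitors that endothelium also expresses, fell by 0.82, from 620.3 ± 134 to 376 ± 146 (adjusted p = 0.0222), and by 1.21 after centring. Without the pair of lungs that stood apart it fell by 0.47 (adjusted p = 0.0448).

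Of the 10 chemokines that bind CCR3 or draw eosinophils, 7 rose and 0 fell (median 1.63), or 6 and 0 after centring, against 43.3% of all genes called higher on the deposited scale. The difference was smaller on day 2, with a median change of −1.32 (all genes −0.17), though 0 of the list passed. The median of their sums was 3220 in dust and 661 in saline lungs on day 1, and 1343 and 799 on day 2. Ccl3 rose by 3.14 (adjusted p = 4.96e-05), Ccl8 by 2.18 (adjusted p = 7.90e-05), Ccl12 by 2.09 (adjusted p = 1.04e-04) and Ccl7 by 1.59, from 30.0 ± 9.69 to 103 ± 58.7 (adjusted p = 3.93e-04; 0.40 with a common floor). The eotaxins, named here after their values were seen, did not pass with all lungs. Ccl11 was at 83.1 ± 97.5 in dust and 46.1 ± 21.5 in saline (0.57, adjusted p = 0.184), but passed without the pair of lungs that stood apart (0.93, adjusted p = 0.0367). Ccl24 was at the floor in 12 of 13 dust and 9 of 10 saline lungs.

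Of 11 tested type 2 genes 5 rose and 0 fell (median 0.63), or 4 and 0 after centring, with Il25 at the floor everywhere. That share is near the 43.3% of all genes called higher, and without the pair of lungs that stood apart it was 7 of 11, against 43.6% of all genes. The macrophage gene sum that marks 1 of these lungs includes Chil3 of this list, so that this count is not independent of their choice. Chil4 and Chil3, chitinase-like proteins of macrophages and epithelium, rose by 1.19 (adjusted p = 1.13e-04) and 1.23 (adjusted p = 9.77e-04), Il4ra by 1.03 (adjusted p = 3.86e-04) and Arg1, arginase, by 2.17 (adjusted p = 0.00915). Of 5 tested other eosinophil genes 2 rose and 0 fell (median 0.25), also near 43.3%, or 1 and 0 after centring. The count was 4 of 5 without the pair of lungs that stood apart and 0 of 4 with a common floor. Adora3 rose by 1.42, being at the floor in 7 of 10 saline lungs and 1 of 13 dust lungs (adjusted p = 4.25e-05; 0.08 and adjusted p = 0.144 with a common floor). Cysltr1, a leukotriene receptor, rose by 0.55 (adjusted p = 0.0104), or 0.16 after centring (adjusted p = 0.383), while Itga4 and Alox15 were each at 0.25 (adjusted p = 0.314 and 0.521). Without the pair of lungs that stood apart Itga4 was at 0.51 (adjusted p = 0.0123) and Alox15 at 0.64 (adjusted p = 0.0444).

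Of 9 adhesion molecules 5 were called higher and 0 lower (median 0.44), against 43.3% and 9.99% of all genes. After centring 3 were called higher and 2 lower, where more genes of the panel were called lower than higher. The integrin chains Itgam and Itgb2 rose by 2.09 (adjusted p = 5.74e-05) and 1.44 (adjusted p = 6.14e-05), and the selectin ligand Selplg by 1.35 (adjusted p = 1.11e-04). The endothelial Vcam1 rose by 0.44 (adjusted p = 0.00627) and was at 0.05 after centring (adjusted p = 0.702).

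Markers of other cell types were read beside the 8 genes, where 43.3% of all genes were called higher and 9.99% lower in dust. The alveolar macrophage list, whose cells carry Siglecf, had 6 of 10 genes higher and 1 lower in dust (median 0.90; 5 and 1 after centring), and its summed level was 13590 to 52245 normalized counts in dust lungs and 17826 to 28560 in saline lungs. Itgax, the integrin CD11c, rose by 1.86 (adjusted p = 6.72e-06), Marco by 1.70 (adjusted p = 1.44e-05), Cd68 by 1.72 (adjusted p = 3.59e-05) and Lpl by 1.09 (adjusted p = 1.31e-04). In this list 0 genes were at the floor in every lung. The neutrophil list had 9 of 12 tested genes higher and 0 lower (median 1.87, with 9 and 2 after centring), with sums of 2353 to 44142 in dust and 2009 to 4014 in saline, and Elane at the floor in every lung. Its dust difference was also smaller on day 2 (median change −1.44, all genes −0.17, 0 called). The median neutrophil sum in dust lungs was 24159 on day 1 and 5014 on day 2. The mast cell and basophil list had 1 of 6 tested genes higher and 1 lower (median −0.08; 0 and 4 after centring), with sums of 1059 to 1426 in dust and 1001 to 1498 in saline. Its defining genes Cpa3, Ms4a2 and Tpsb2 were at the floor in every lung. Cma1 of this list was at the floor in 11 of 13 dust and 9 of 10 saline lungs, and Mpo of the neutrophil list in 12 and 10. Genes called lower after centring in these lists may therefore rest on floor values. The part of these cells in the values of Siglecf and the ribonuclease genes was not tested.

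The remaining lists are again set against 43.3% of all genes called higher and 9.99% lower. Of 5 tested B cell and plasma cell genes 3 were called higher and 0 lower (median 0.82, with 2 and 1 after centring). Their sums were 429 to 1280 in dust and 403 to 706 in saline. Of 5 tested genes of type 2 innate lymphoid cells and T helper 2 cells 0 were called higher and 1 lower, or 0 and 1 after centring (median −0.15; sums 164 to 444 and 194 to 428). That gene was Gata3, which fell by 0.67 (adjusted p = 0.00217). Of 5 genes of endothelium and epithelium 1 was called higher and 3 lower, or 0 and 4 after centring (median −0.58; sums 9956 to 18499 and 14115 to 19917).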

How the data were processed

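Total RNA of 23 left lungs was read on a mouse myeloid panel of 754 genes. The deposited numbers are a normalized signal: per the file headers and the spacing of the values, probe counts were scaled by a factor of 0.682 to 4.21 for each lung. All readings over the floor (100.0%) fell within 0.1 steps of a whole count. Counts under 20 had been raised to 20 by the authors, and read 20 whatever the factor of the lung. Because those counts are hidden, no count model was used. At 20 counts, counting error alone has an SD of 4.47, or 22.4%. How the factor was made and the probe sequences are not stated in the labels or headers.

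Fits used log2(value + 1) in limma 3.58.1 (R 4.3.3). A group-means model of all 23 lungs in 8 groups by extract code gave 8 contrasts, and models with the extraction day gave 2 more; tests were two-sided, with p-values adjusted by Benjamini and Hochberg's method across 711 genes, those read over the floor in 1 lung or more. The floor can shrink or stretch fold changes of low genes. Each lung is from a separate mouse. The fit was tested on simulated data that held no floor, so that test does not cover genes near the floor. Replicate numbers did not pair lungs: across groups, deviations of lungs of the same day and number correlated at 0.05 on average, and those of the same day and other numbers at 0.06, over 470 genes. Alternatives changed the pseudocount, filter, floor, scaling, blocks, labels and lungs used, and those on binding density and detection limit were added after the data were seen. Python 3.11.15 with pandas 2.3.3, numpy 2.4.6, Biopython 1.88 and matplotlib 3.10.9 made tables, alignments and plots.

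The 8 genes and the gene lists were chosen with earlier results of these data known. All 8 genes are named, with the 3 genes of highest r for each (1 of those for Rnase2a is not reported here) and up to 4 genes of smallest p from each list; the eotaxins and genes at the floor were named beyond that rule.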

Additional observations from a re-analysis of the deposited data

Results flagged for a closer look

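In 14 of 42 groups of 4 to 10 lungs a single lung stood apart from the others, where chance flags about 5% of groups. The test is not made for values at a floor: in most of these groups nearly all lungs were at 20, so that any reading stood apart. WT female saline lung 1 of day 2 gave 7 of the flags. They were Ear6 at 38.18, Rnase2a at 295.65 and Prg2 at 38.18, each among the 10 saline lungs and among the 5 WT saline lungs, and Ccr3 at 40.84 among the 5 WT saline lungs. Rnase2a was at 33.39 in Fat-1 female saline lung 1 of day 2, with the other 4 Fat-1 saline lungs at the floor. Rnase2b was at 97.62 in WT male saline lung 1 of day 1, the highest of the 10 saline lungs. Prg2 was at 30.12 in WT female dust lung 1 of day 1 among the 7 WT dust lungs. Il5ra was at 21.75 in Fat-1 male dust lung 1 of day 2 and at 22.32 in WT male dust lung 1 of day 1, the only lungs of their groups above the floor. Ccr3 was at 53.94 in Fat-1 female saline lung 1 of day 1 and at 42.71 in WT female dust lung 1 of day 2. Ear3 and Siglecf, which were read in every lung, gave no flag.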

How the results depend on the processing

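In dust against saline 3 of the 8 genes passed, and the count was 1 among lungs of day 1 (Rnase2a), 0 among those of day 2, and 1 after median centring (Il5ra). That last call follows from how centring works: Il5ra is at the floor in 21 of 23 lungs, and shifting each lung turned equal floor values into a difference of −0.37 over all lungs, −0.37 in Fat-1 and −0.37 in WT lungs. In Fat-1 lungs the 3 calls became 1 with a common floor, on the housekeeping scale, with groups by the characteristics, and on day 1 or day 2 alone, and 0 without the 4 lungs whose labels disagree. Leaving out single lungs gave 1 to 4 calls. In WT lungs the 2 calls became 1 with the filter at 12 lungs, the cartridge as a block, a common floor, median centring or without the 2 lungs of binding density above 3. They became 0 on the housekeeping scale, on either day alone, without the 4 lungs of limit above 45 and without the 4 lungs whose labels disagree, and were 0 to 2 without single lungs. The genotypes' difference in dust response had 1 call on day 2 alone (Prg2) and 1 without the lungs of limit above 45 (Rnase2a), and 0 to 1 without single lungs. Fat-1 against WT had 1 call among dust lungs of day 2 (Prg2) and, among saline lungs, 0 to 1 without single lungs. The sexes' difference in dust response had 1 call on day 2 alone. Apart from the effects of floor, centring and missing lungs just named, the causes were not tested. With the replicate number within day as a block, Siglecf was at 0.69, Ear6 at 0.78 and Ear3 at 0.59 in dust against saline, and the block left 3, 2 and 3 genes called over all, WT and Fat-1 lungs, so that it changed no count; 8 of 23 lungs correlated best with a lung of their own day and number. Single genes kept their direction and side of the threshold, or moved by less than their error, in 2715 alternatives, moved further in 198, lost a call in 70, gained one in 16 and reversed in the 3 named above. Over all tested genes, day 2 alone left 3 calls of 379 in dust against saline, 3 of 271 in Fat-1 and 1 of 251 in WT lungs. In Fat-1 lungs the 271 became 160 with the replicate block, 167 with groups by the characteristics, 136 without the lungs of limit above 45, 69 without those whose labels disagree, and 172 or 164 without female saline lung 1 of day 1 or day 2. In WT lungs the 251 became 127 without the lungs of limit above 45, 139 without those whose labels disagree and 117 without female saline lung 1 of day 1. The 6 calls for a change of the dust difference with the day became 182 without Fat-1 male dust lung 1 of day 2, a lung of binding density above 3, and 0 with a common floor. Day 2 alone leaves 1 lung in several groups, and with so few calls over the panel 0 of the 8 genes says nothing particular to them. Day 1 alone also leaves a single lung in some groups. Panel calls are given here only for some of these fits, so that the counts of the 8 genes describe the fits and not these genes. Prg2, Il5ra, Ccr3 and Ear6 are limited by depth, since levels under 20 to 84.3 normalized counts could not be read.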
